A study of Bubalus bubalis with 6 samples.

Results

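The chromatin modifier and remodeller host genes are the genes in the deposited circRNA table whose symbols begin with KDM, KMT, SETD, NSD, ARID, SMARC, HDAC, KAT, BRD or BRWD, or read CHD or RCOR followed by a number. There were 95 such host genes among the 8611 in the table, and they gave 1028 of its 57308 circRNAs. A host gene is the gene a circRNA is made from, and its level here is the sum of the reads of all its circRNAs. The animals were Jianghuai buffalo cows aged 3 to 5 years, kept on 1 farm, whose oestrus had been synchronised. The pregnant group (P-Buffalo, n = 3) was artificially inseminated, bled from the jugular vein on day 25 and scanned by ultrasound on day 60, which showed the pregnancy. Cows of the non-pregnant group (C-Buffalo, n = 3) gave blood on the same day without having been inseminated, and the effect of insemination itself cannot be told apart from that of pregnancy. There was 1 library per animal, of whole-blood RNA freed of ribosomal RNA and digested with RNase R, an enzyme that removes linear RNA, and the p-values below measure the spread between these animals.

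Chromatin modifiers add or remove methyl and acetyl groups on histone tails, readers such as bromodomain proteins bind the acetylated tails, and remodellers use ATP to move or evict nucleosomes. Lysine methyltransferases (KMT, SETD, NSD) are opposed by demethylases (KDM), and acetyltransferases (KAT) by deacetylases (HDAC), which often act inside larger complexes such as CoREST (RCOR). The ARID and SMARC genes supply most subunits of SWI/SNF, the remodeller whose core ATPase is SMARCA2 or SMARCA4. Many of these genes are long and hold numerous exons. A circRNA forms when the end of an exon is joined back to the start of an earlier one (exonic circRNA), or when an intron is kept as a circle (ciRNA). The reads say how much of each circle was in blood, not how much protein or messenger RNA the gene made.

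The rule also took in 6 genes that encode no chromatin protein, namely katanin genes such as KATNA1 and KATNAL1, which act on microtubules, and NSDHL, an enzyme of cholesterol synthesis. They held 17 circRNAs and 136 of the 108090 reads of the set, and none passed the filter on low counts. The other 89 host genes were 16 KDM, 8 KMT, 9 SETD, 9 ARID, 11 SMARC, 9 HDAC, 8 CHD, 7 BRD, 2 BRWD and 2 RCOR genes, with KAT and NSD genes making up the rest. Of related genes set out in a list beside the rule, KDM4D, KDM5D, SETD1A, SETD6, SMARCD3, SMARCE1, CHD5, HDAC10, HDAC11, RCOR2, KAT2A, KAT5, KAT7 and BRDT had no circRNA in the table.

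The 6 libraries held between 815851 and 1298753 counts each. Non-pregnant replicate 2 stood apart from the rest: 12336 circRNAs were read in it, against 17446 to 26802 in the other 5, and its TMM factor, which corrects for unequal composition, was 0.688 over host genes and 0.467 over circRNAs, against 0.985 to 1.13 and 1.09 to 1.25. Levels are given as CPM, counts scaled to a common library size after these factors, with the first kind of factor for host genes and the second for single circRNAs, so a given share of reads weighs more in that library. Blood cell markers were present as circRNAs in part: 12 of 13 erythroid, 8 of 12 platelet, 8 of 12 neutrophil, 9 of 12 T cell, 10 of 12 B cell, 3 of 12 monocyte and 3 of 12 NK cell genes, with CD14 and LYZ of monocytes and CXCR1 and CXCR2 of neutrophils listed with none. The summed level of the platelet markers was 1142 to 1894 CPM in pregnant animals, against 2096 to 3845 CPM in non-pregnant animals, and that of the erythroid markers was 3696 to 5966 CPM, against 1998 to 6749 CPM. In bulk blood, fewer cells of a type and less RNA per cell cannot be told apart, and the part of these differences in the values below was not tested.

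The set took 1.88%, 1.63% and 1.59% of the counts in pregnant replicates 1, 2 and 3, against 1.56%, 1.82% and 1.94% in non-pregnant replicates 1, 2 and 3. The means were 1.70 ± 0.15% and 1.77 ± 0.19% (SD, n = 3 each), the ranges overlapped, and the means differed by less than either SD. In number, 395, 455 and 344 circRNAs of the set were read in the pregnant libraries, against 315, 212 and 439 in the non-pregnant ones. Of all circRNAs read in a library these were 1.80%, 1.70% and 1.91%, against 1.81%, 1.72% and 1.77%. A member host had a median of 163 reads over the 6 libraries, against 58 for all host genes, and a median of 9 circRNAs, against 3.

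Reads were concentrated in a few genes. KDM4C, a demethylase of histone H3K9 and H3K36, gave 33754 reads, 31.2% of the set, and ranked 13 of the 8611 host genes. SMARCC1, a scaffold subunit at the core of SWI/SNF, followed with 13379 reads and rank 57. Next came ARID1B, a DNA-binding SWI/SNF subunit, with 7068 reads, KAT2B, the acetyltransferase also known as PCAF, with 6260, and KDM6A, an H3K27 demethylase, with 4251. The top 5 hosts took 59.9% and the top 10 took 73.8% of the reads, and 12 of the 95 hosts had under 10 reads. Among the low ones were class I deacetylases that most cells use: HDAC1 had 4 reads and HDAC3 had 5 reads in all 6 libraries together. The SWI/SNF ATPase genes SMARCA2 and SMARCA4 had 150 and 37 reads, so subunits of 1 complex differed widely in circRNA output. These are spliced reads at circle junctions and were not divided by a length.

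**Figure D1:**
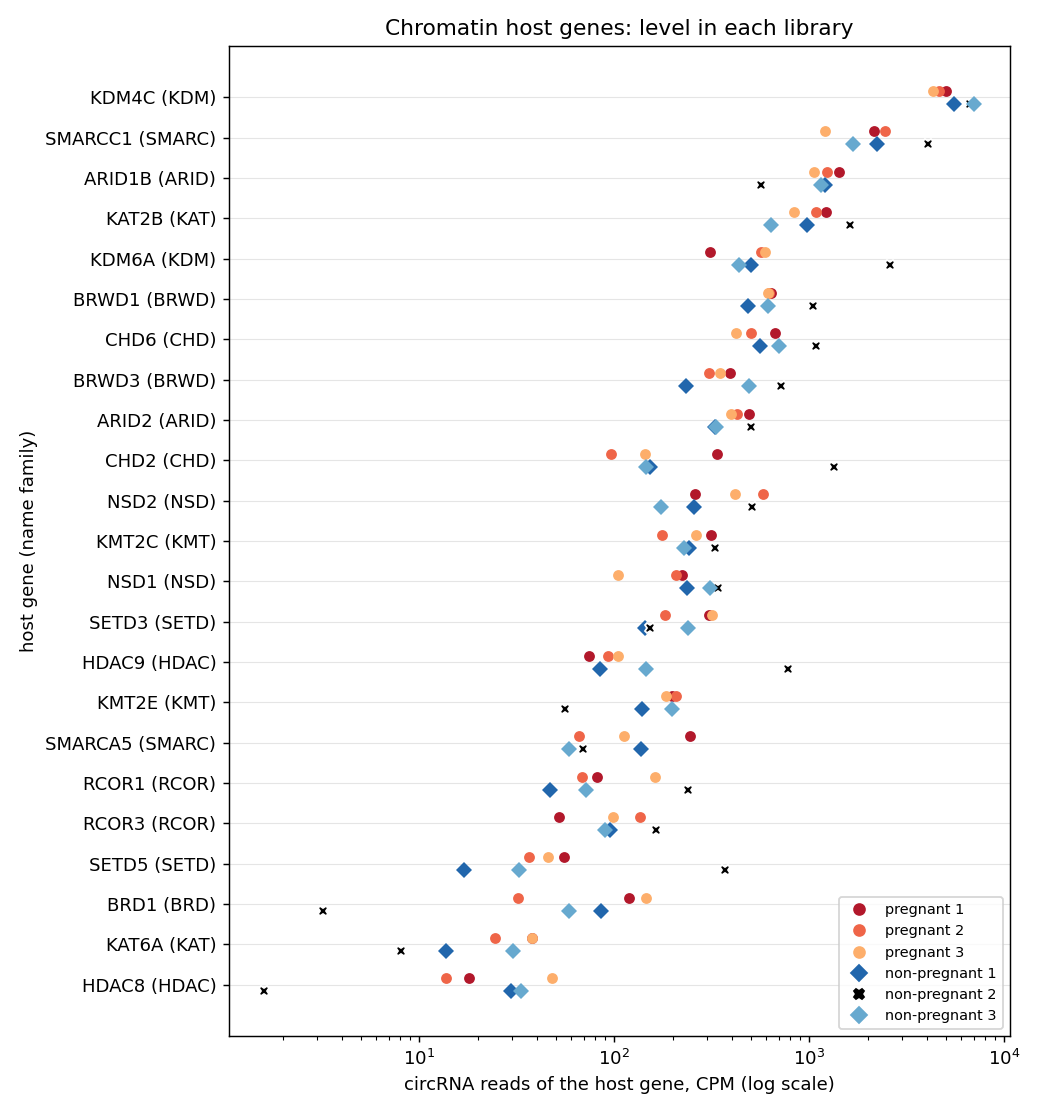
Level of chromatin host genes with the highest mean in each name family, in CPM on a log axis. Each point is 1 library, pregnant above non-pregnant on each line. KDM4C sits near the right edge in every library, with all 3 pregnant animals below all 3 non-pregnant animals, and non-pregnant replicate 2 (black crosses) is the highest point for KDM6A, CHD2, HDAC9 and SETD5 and the lowest for BRD1 and HDAC8.

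Some of the most abundant hosts drew nearly all reads from a single circle. In KDM4C this was circRNA2571, of 3 exons, at NC_037547.1:100935691-100957103 on the minus strand of assembly ASM312139v1. It made up 88.1%, 92.6% and 89.0% of the KDM4C reads in pregnant replicates 1, 2 and 3, against 90.9%, 95.4% and 93.3% in non-pregnant replicates 1, 2 and 3, and by itself 28.6% of all reads of the set. In SMARCC1 the 3-exon circRNA5126 (NC_037565.1:52079015-52080607, plus strand) made up 90.2% to 96.1% of reads in pregnant animals and 90.6% to 98.0% in non-pregnant animals. CHD6, a CHD remodeller, was of the same kind, with 87.4% of its reads in circRNA11726. In these hosts the leading circle was the same in all 6 libraries.

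Other hosts spread their reads thinly. KMT2C, which methylates H3K4 at enhancers, gave 53 circRNAs, the most of any member, and its leading circle circRNA10969 held only 15.9% of 1535 reads. BRWD1, a bromodomain and WD repeat protein, gave 52 circRNAs, all exonic, of which 9 shared the end at position 183901802 on NC_037545.1 and took 67.4% of the exonic reads. Throughout, start and end mean the lower and higher genome position, on either strand. A shared position also occurred in hosts led by 1 circle. In KDM4C, 6 circRNAs had the start 100935691 and held 94.0% of the exonic reads. In NSD2, 5 circRNAs with the end 1125307 took 91.2% of the exonic reads, and in SETD3, 5 with the end 5057575 took 97.6%. Most of these reads fell on 1 circle. By themselves circRNA2571, circRNA6871 and circRNA8858 held 91.7%, 82.9% and 87.8% of all reads of KDM4C, NSD2 and SETD3. Over the 58 hosts that passed the filter, the leading circle held a median of 51.2% of reads, against 59.6% over all 4137.

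The leading circle changed between animals in several hosts. KAT2B had 2 main circles of 2 exons each, circRNA4899 (NC_037545.1:201848945-201850577) and circRNA4901 (NC_037545.1:201880947-201884135). The share of circRNA4901 was 59.3%, 18.6% and 41.6% in pregnant replicates 1, 2 and 3, against 10.1%, 30.1% and 23.2% in non-pregnant replicates 1, 2 and 3. Its share was highest in pregnant replicates 1 and 3, but that of pregnant replicate 2 lay within the non-pregnant range. In ARID1B, circRNA45 led with 62.3% to 64.6% in pregnant animals and 64.9% and 52.1% in non-pregnant replicates 1 and 3, but fell to 24.7% in non-pregnant replicate 2, where circRNA50 took 60.2%. The reads of NSD1, KMT2C and RCOR3 were likewise dominated in that 1 library by a circle that held 87.7%, 89.8% and 90.2% of the gene's reads there.

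**Figure D2:**
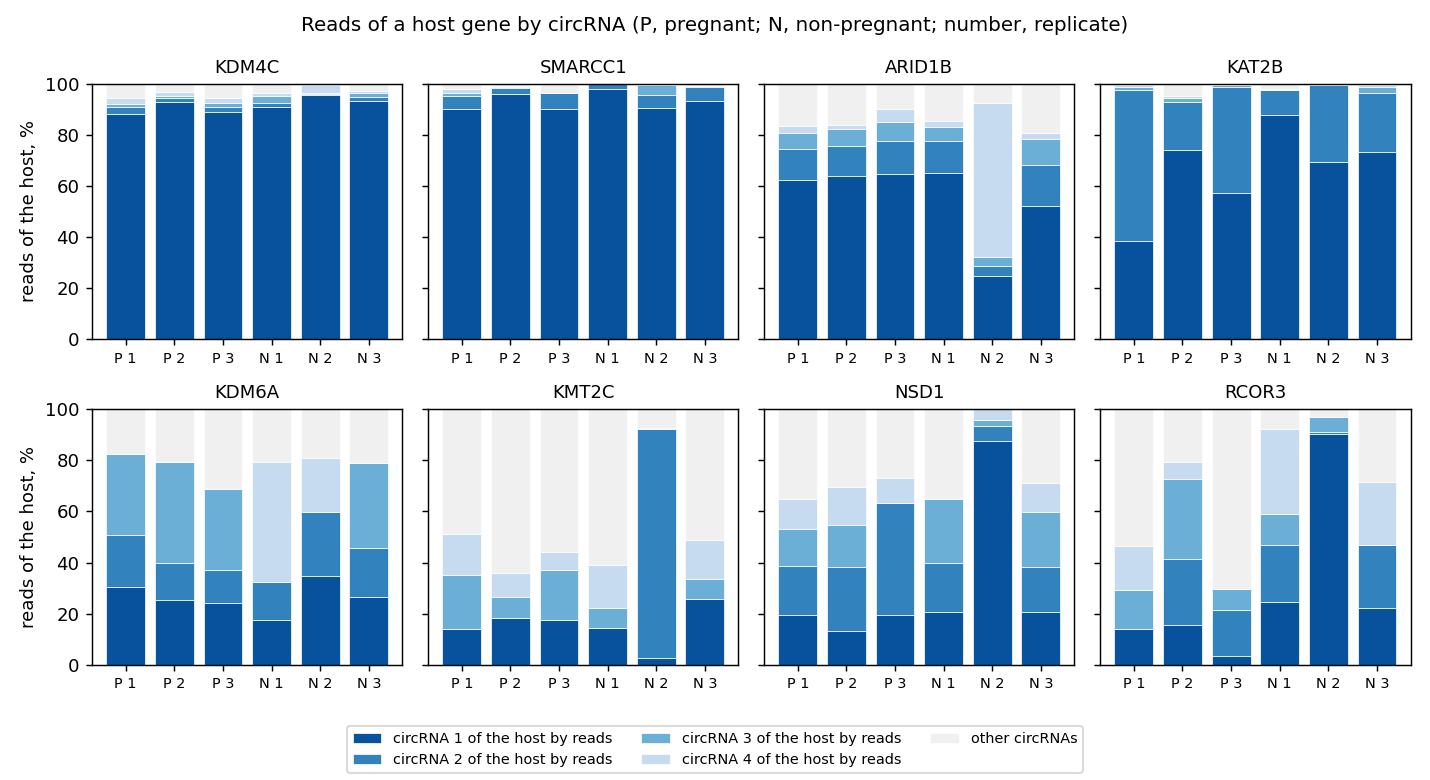
Share of a host gene's reads that fell on each of its 4 most read circRNAs (blue shades, ranked over all libraries) and on the rest (grey), in percent, for 8 hosts and 6 libraries with pregnant on the left. KDM4C and SMARCC1 kept 1 leading circle everywhere (88.1% or more), whereas ARID1B, KMT2C, NSD1 and RCOR3 had a different make-up in non-pregnant replicate 2.

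By type, 880 of the 1028 circRNAs were exonic and 148 intronic, which is 85.6% and 14.4%, against 85.7% and 14.3% over all host genes. Exonic circles of the set had a median of 3 exons, as over all host genes, and at most 14. The median span on the genome was 4047 bp, against 5419 bp over all host genes. Only 84 circRNAs (8.17%) were read in all 6 libraries, but they held 81.6% of the reads, and 598 (58.2%) were read in 1 library only. By group, 392 (38.1%) were read in pregnant animals only, 273 (26.6%) in non-pregnant animals only and 363 (35.3%) in both, against 37.8%, 25.6% and 36.6% over all host genes. Entries with both ends within 1 bp of another entry (14.2% of the set, against 14.4% of the table) were counted as separate circles in these numbers.

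CHD3, an ATPase of the NuRD deacetylase complex, stood out in type, because its 18 circRNAs were all intronic. Of these, 13 shared the end at position 35813034 on the minus strand of NC_037547.1, with starts spread over 32 bp from 35812719 to 35812751, and they took 91.4% of its reads. The 13 circles together had 76, 111 and 63 reads in pregnant replicates 1, 2 and 3, against 32, 6 and 32 reads in non-pregnant replicates 1, 2 and 3. Every pregnant library held more of these reads than any non-pregnant one. The most read of them, ciRNA138 of 297 bp, had 35, 35 and 20 reads, against 9, 0 and 1.

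The groups were then compared by edgeR's quasi-likelihood test over all 4137 host genes and, separately, over all 8261 circRNAs that passed its filter on low counts, of which 58 hosts and 147 circRNAs belonged to the set. A feature was called where its log2 fold change was 1 or more in size and its p passed the threshold. At an adjusted p under 0.05 (Benjamini-Hochberg over all features tested), edgeR called 0 of the 58 hosts and 0 of the 147 circRNAs. Over all features edgeR called 0.0% in both fits. DESeq2 and limma on the same features also called 0 members at an adjusted p. Over all features, DESeq2 called 1 of 4137 hosts and 39 of 8261 circRNAs. With 1 added to the SRPBM values, limma called 1 host and 11 circRNAs over all features, and with 0.1 added 0 and 0. At an unadjusted p under 0.05, edgeR called 1 of the 58 hosts (1.72%), HDAC9, which was lower, against 5.49% of all hosts in either direction and 4.52% lower. DESeq2 called 2 of the 58 hosts, against 8.22% of all hosts, and limma called 0, against 2.78% and 3.31% of all hosts with 0.1 and 1 added to the SRPBM values. Among circRNAs, edgeR called 2 of 147 (1.36%), both lower, against 3.89% of all circRNAs in either direction and 2.46% lower. DESeq2 called 6 of the 147, against 7.01% of all circRNAs, and limma called 2 and 4 with 0.1 and 1 added, against 3.66% and 4.37% of all circRNAs. The smallest adjusted p by edgeR was 0.844 for a member host and 0.983 for a member circRNA, so the differences below are given as sizes with their standard errors.

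The levels of the 3 pregnant animals lay entirely above or below those of the 3 non-pregnant animals for 6 of the 58 hosts (10.3%), against 11.5% of all hosts tested. The 4 that were higher included CHD1, CHD3 and SETD2 (6.9%, against 7.06%), and KDM4C and NSD1 were lower (3.45%, against 4.47%). For circRNAs the count was 15 of 147 (10.2%), against 12.0% of all tested, with 13 higher (8.84%, against 8.16%) and 2 lower (1.36%, against 3.87%). These shares were close to the background or under it. The separation also depended on the scaling: with plain shares of library counts 4 hosts were higher and 0 lower (6.9%, against 11.3% of all hosts), and on the authors' SRPBM, spliced reads scaled to the mapped reads of a library, only SETD2 kept it (1.72%, against 7.13% of all hosts). Of the 15 circRNAs, 8 kept it under all 3 scalings.

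The median log2 fold change (pregnant over non-pregnant) was -0.066 over the 58 hosts, with 27 above 0 and 31 below, and 0.012 over all hosts. Its sign was not stable, at 0.13 with SRPBM-implied library sizes and -0.38 with RLE factors. By family, the 13 KDM genes tested had a median of -0.57 (5 above 0), the 7 SWI/SNF subunits 0.34 (5 above 0), the 4 H3K36 methyltransferases 0.49 (3 above 0), the 6 CHD remodellers 0.027 (3 above 0) and the 6 bromodomain proteins outside SWI/SNF -0.09 (3 above 0). The KDM median was below 0, and the SWI/SNF and H3K36 medians above 0, under every scaling, filter and omission of a library that was run, whereas the CHD and bromodomain medians changed sign with the scaling (RLE factors gave -0.18 and -0.30, SRPBM-implied sizes 0.22 and 0.052). These alternatives reused the same 6 libraries, and the median of all hosts moved as well. It ran from -0.13 with RLE factors to 0.44 with limma and 0.1 added to SRPBM. Without non-pregnant replicate 2 the KDM median was -0.10 and the SWI/SNF median 0.079. In each of these 5 lists edgeR called 0 members at an adjusted and at an unadjusted p.

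The demethylases held the most reads. KDM4C had levels of 5001, 4649 and 4309 CPM in pregnant replicates 1, 2 and 3, against 5521, 6680 and 7038 CPM in non-pregnant replicates 1, 2 and 3. Every pregnant animal was below every non-pregnant one on this scale, and the log2 fold change was -0.46 (standard error, SE, 0.38, edgeR adjusted p = 0.957), or -0.42 without non-pregnant replicate 2. As shares of library counts the groups overlapped, at 0.534%, 0.471% and 0.473% in pregnant animals, against 0.532%, 0.446% and 0.775% in non-pregnant animals, so that only non-pregnant replicate 3 was clearly apart. KDM5C, an H3K4 demethylase, had 82.0, 22.8 and 35.8 CPM in pregnant animals, against 38.1, 3.21 and 11.9 CPM in non-pregnant animals, with overlapping groups and a log2 fold change of 1.38 (SE 1.11). KDM1A, the flavin-dependent demethylase LSD1, was named through its ciRNA978, which had 15, 67 and 32 reads in pregnant animals, against 47, 117 and 97 reads in non-pregnant animals, with overlapping levels and a log2 fold change of -2.06 (SE 1.06) that was -0.93 without non-pregnant replicate 2.

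KDM6A, a gene of the X chromosome in human and mouse, had 310, 567 and 593 CPM in pregnant animals, against 499.9, 2586 and 435 CPM in non-pregnant animals. Non-pregnant replicate 2 alone was high, the groups overlapped otherwise, and the log2 fold change of -1.26 (SE 0.63) became 0.079 without it. Of the exonic reads, 71.8% came from 5 circles with the same start, position 43642132 on the plus strand of NC_037569.1. Entries that start 1 bp later are not in this share. Counted entry by entry, circRNA10249 led, with 104, 188 and 129 reads in pregnant animals against 82, 562 and 144 reads in non-pregnant animals. Next was circRNA10250, which had 71, 109 and 67 reads against 70, 403 and 105 reads.

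A further pair of KDM6A circles differed by 1 bp at the start and never met in 1 library. The 2-exon circRNA27035 (NC_037569.1:43642132-43653105) had 109, 296 and 170 reads in pregnant animals, against 0, 0 and 183 reads in non-pregnant animals. The 2-exon circRNA13231, which starts 1 bp later and has the same end, had 0 reads in all 3 pregnant libraries, against 222, 336 and 0 reads in the non-pregnant ones. Together the 2 entries held 1316 reads, above the 1209 reads of circRNA10249. Taken alone, circRNA27035 had a log2 fold change of 1.81 (SE 1.82). Summed, the pair had 109, 296 and 170 reads in pregnant animals, against 222, 336 and 183 reads in non-pregnant animals, with overlapping groups and a log2 fold change of -1.31 (SE 0.88), so that the direction depended on whether the 2 entries were taken as 1 circle.

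**Figure D3:**
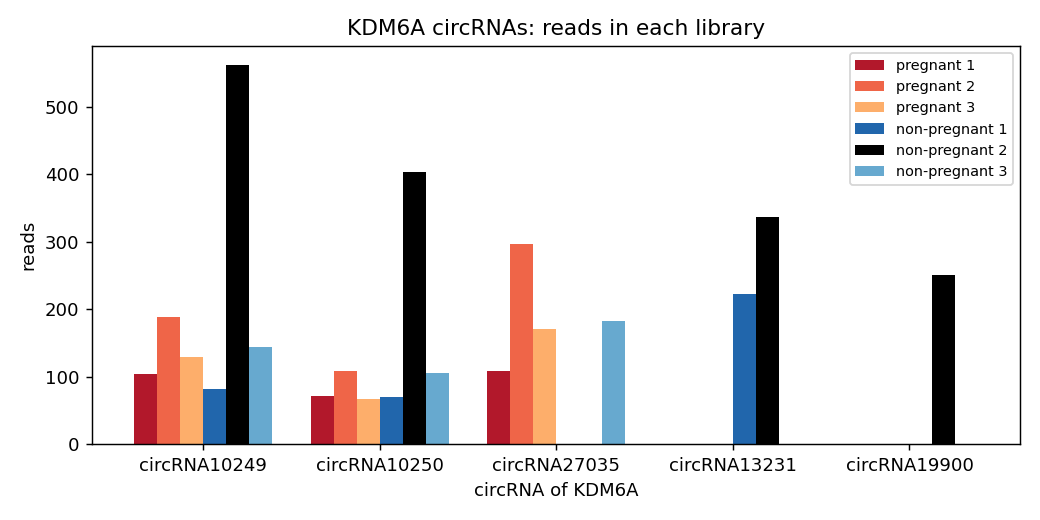
Reads of 5 KDM6A circRNAs (bars) in each library, pregnant animals in reds on the left of each group of bars and non-pregnant animals in blues and black on the right. circRNA27035 and circRNA13231, whose starts differ by 1 bp, fill each other's gaps, and circRNA19900 had 251 reads in non-pregnant replicate 2 and 0 elsewhere.

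Among the methyltransferases, SETD2, which places the third methyl group on H3K36, had 23.4, 31.1 and 39.1 CPM in pregnant animals, against 9.53, 3.21 and 13.5 CPM in non-pregnant animals. All 3 pregnant animals were above all 3 non-pregnant ones under each scaling, with a log2 fold change of 1.79 (SE 1.17, edgeR adjusted p = 0.915), or 1.43 without non-pregnant replicate 2. These levels rest on 26, 41 and 35 reads, against 9, 2 and 17 reads. NSD1, an H3K36 dimethyltransferase, had 222, 207 and 104 CPM, against 235, 339 and 311 CPM, with a log2 fold change of -0.73 (SE 0.61). In CPM it was lower in all pregnant animals, but as shares of library counts and on SRPBM the groups overlapped. NSD2, which places the same mark, went the other way, with 261, 579 and 418 CPM in pregnant animals against 256, 506 and 174 CPM in non-pregnant animals, overlapping groups and a log2 fold change of 0.43 (SE 0.58).

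Within NSD1, the leading circle was also lower in the pregnant animals. The 3-exon circRNA1469 (NC_037553.1:72565105-72627433, minus strand) had 48, 36 and 18 reads in pregnant animals, against 46, 185 and 81 reads in non-pregnant animals. Scaled, its levels were 39.2, 25.3 and 17.7 CPM, against 43.2, 425 and 57.9 CPM, which put every pregnant animal below every non-pregnant one under each scaling. The log2 fold change was -2.67 (SE 1.15, edgeR adjusted p = 0.983), which passed the unadjusted threshold with all libraries, and -0.91, which did not, without non-pregnant replicate 2.

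KMT2C had 315, 175 and 263 CPM in pregnant animals, against 243, 329 and 228 CPM in non-pregnant animals, and KMT2E, a SET domain protein of the same family, had 197, 208 and 184 CPM, against 139, 56.2 and 198 CPM. Both overlapped between groups. SETD3, which methylates actin, had 305, 183 and 317 CPM, against 143, 153 and 239 CPM, a log2 fold change of 0.59 (SE 0.61) with overlapping groups. SETD5, a SET domain protein without a settled substrate, had 55.0, 36.5 and 45.8 CPM, against 16.9, 369 and 32.6 CPM, so that the pregnant animals were above 2 of the non-pregnant animals and far below the other. Its log2 fold change was -1.60 (SE 1.03) with all libraries and 0.88 without non-pregnant replicate 2. SETDB2, an H3K9 methyltransferase, was named through its single-exon circRNA6746, which had 39, 16 and 4 reads, against 17, 200 and 9 reads, and only non-pregnant replicate 2 was high. Its log2 fold change of -3.34 (SE 1.66) was 0.48 without that library.

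In SWI/SNF, SMARCC1 had 2147, 2435 and 1201 CPM in pregnant animals, against 2214, 4057 and 1668 CPM in non-pregnant animals, a log2 fold change of -0.46 (SE 0.46) that was 0.0022 without non-pregnant replicate 2. ARID1B had 1417, 1231 and 1052 CPM, against 1206, 565 and 1147 CPM, and ARID1A, its paralog in the same complex, had 159, 38.7 and 101 CPM, against 64.6, 19.3 and 45.3 CPM. The groups overlapped for both, with log2 fold changes of 0.34 (SE 0.46) and 1.20 (SE 0.92). ARID2, the subunit of the PBAF form, had 490, 425 and 399 CPM, against 329, 504 and 331 CPM, and 2 of its 3 non-pregnant animals were below all pregnant ones. BRD7, a bromodomain subunit of PBAF, held circRNA7446, which had 15, 13 and 23 reads, against 1, 2 and 3 reads, without overlap under any scaling and with a log2 fold change of 2.55 (SE 1.42, edgeR adjusted p = 0.983). SMARCA5, the ATPase of ISWI remodellers, had 244, 66.1 and 112 CPM, against 137, 69.0 and 58.8 CPM, and ARID4B, a subunit of the Sin3 deacetylase complex, had 165, 140 and 61.5 CPM, against 156, 489.6 and 166 CPM, both with overlapping groups.

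Of the 6 CHD remodellers tested, 3 had a positive log2 fold change with all libraries and 5 without non-pregnant replicate 2, and their median of 0.027 became 0.55. CHD1, which acts on transcribed genes, had 115, 66.8 and 64.8 CPM in pregnant animals, against 46.6, 12.8 and 28.6 CPM in non-pregnant animals, and CHD3 had 73.0, 86.6 and 70.4 CPM, against 54.0, 11.2 and 27.0 CPM. Neither overlapped in CPM, but both did on SRPBM. The log2 fold changes were 1.48 (SE 0.95, edgeR adjusted p = 0.915) and 1.31 (SE 0.95, edgeR adjusted p = 0.946). Without non-pregnant replicate 2 these were 1.15 and 0.94. CHD2, a close relative of CHD1, had 336, 95.7 and 143 CPM, against 153, 1339 and 146 CPM, and CHD9 had 19.8, 22.0 and 46.9 CPM, against 4.24, 294 and 31 CPM. In both only non-pregnant replicate 2 was high, and the log2 fold changes of -1.51 (SE 0.79) and -1.88 (SE 1.17) were 0.37 and 0.73 without it. CHD6 had 670, 504 and 421 CPM, against 560, 1087 and 696 CPM.

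Of the deacetylases 3 of 9 hosts passed the filter. HDAC9, a class IIa deacetylase, had 73.9, 92.6 and 105 CPM in pregnant animals, against 84.7, 777 and 145 CPM in non-pregnant animals. The groups overlapped, and non-pregnant replicate 2 was far above every other library. The log2 fold change was -1.89 (SE 0.78, edgeR adjusted p = 0.844) with all libraries and -0.34 without that library, so that the 1 host called at an unadjusted p was no longer called. Its 5-exon circRNA18537 (NC_037552.1:27227853-27273120, plus strand) had 3, 2 and 10 reads, against 0, 297 and 0 reads, and the intronic ciRNA2435 had 179 reads in that library and 0 in the rest. HDAC8, a class I enzyme, had 18.0, 13.7 and 48.1 CPM, against 29.7, 1.61 and 33.4 CPM.

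The CoREST genes RCOR1 and RCOR3, which bridge KDM1A and the class I deacetylases, were at 81.1, 68.3 and 162 CPM (RCOR1) in pregnant animals, against 46.6, 238 and 71.5 CPM in non-pregnant animals, and at 52.3, 136 and 98.3 CPM (RCOR3), against 95.3, 164 and 89.8 CPM. Neither gene separated the groups. RCOR3's leading circle, the 2-exon circRNA11054 (NC_037549.1:8905819-8917911, plus strand), had 8, 28 and 3 reads, against 22, 92 and 25 reads. Its log2 fold change of -3.06 (SE 1.31, edgeR adjusted p = 0.983), which passed the unadjusted threshold, was -0.98 and did not pass it without non-pregnant replicate 2, which held 211 CPM against at most 20.6 CPM in any other library. In RCOR1, circRNA26082 had 36, 35 and 87 reads, against 0, 0 and 26 reads, but its 1-bp neighbour circRNA19411 had 38 reads in non-pregnant replicate 2 only.

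Among acetyltransferases and readers, KAT2B had 1224, 1077 and 838 CPM in pregnant animals, against 978, 1621 and 637 CPM in non-pregnant animals, a log2 fold change of -0.043 (SE 0.48). KAT6A, also known as MOZ, had 37.9, 24.3 and 38 CPM, against 13.8, 8.03 and 30.2 CPM, and BRD1, a scaffold of its complexes, had 119, 31.9 and 145 CPM, against 85.8, 3.21 and 58.8 CPM. BRWD1 had 633, 625 and 615 CPM, against 483, 1040 and 614 CPM, and BRWD3 had 394, 307 and 349 CPM, against 234, 716 and 490.4 CPM. The 3 pregnant animals lay closely together in BRWD1, with an SD of 9.12 CPM, against 291 CPM among non-pregnant animals.

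**Figure D4:**
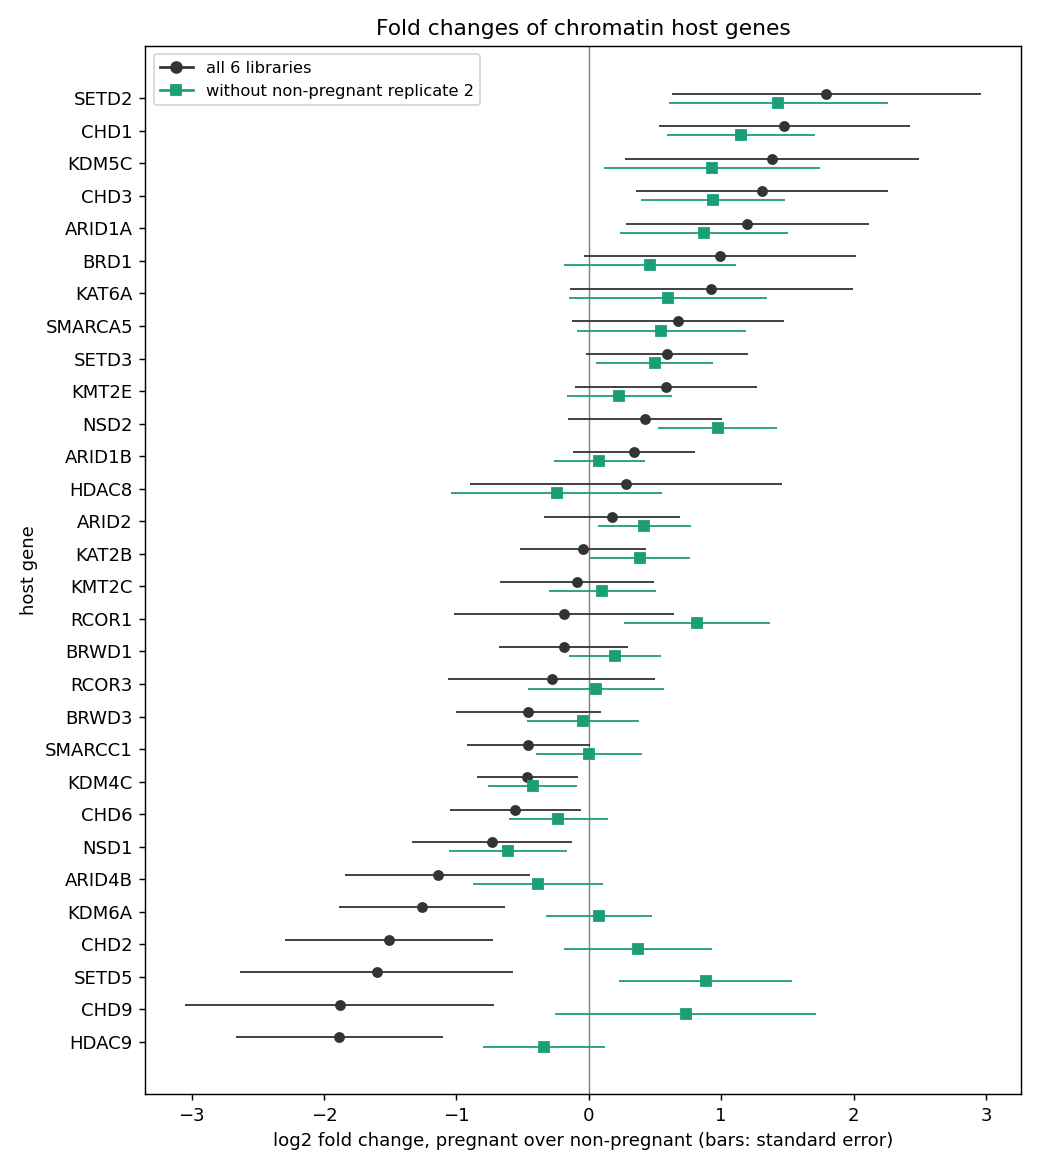
Log2 fold changes (pregnant over non-pregnant, points) with standard errors (bars) of the named chromatin host genes from edgeR, with all 6 libraries (circles) and without non-pregnant replicate 2 (squares). The negative values of KDM6A, CHD2, SETD5 and CHD9 turned positive without that library, that of HDAC9 moved to -0.34, and SETD2, CHD1, CHD3, KDM4C and NSD1 kept their direction.

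Non-pregnant replicate 2 was the extreme library for most members in one direction or the other. Of the 58 hosts tested, it was the highest library for 24 (41.4%) and the lowest for 23 (39.7%), against 28.9% and 44.6% of all hosts tested. In 12 hosts (20.7%, against 15.4% of all) it exceeded the next library by more than 2 times, and in 16 (27.6%, against 31.5%) it was under 50% of the next. It had 0 reads in 6 of the hosts. Of the 118 circRNAs of the set with at least 100 reads, 10 (8.47%, against 8.46% of all circRNAs for the same library) had at least 80% of their reads in 1 library, and for all 10 that library was non-pregnant replicate 2. They came from HDAC9 (2 circRNAs), KDM6A, KMT2C, SETD5, BRWD1, ARID4B, KDM1B, RCOR1 and CHD2, and gave 10.8% of the library's reads of the set. The same held over the whole table, where 574 of 648 such circRNAs were in that library.

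**Figure D5:**
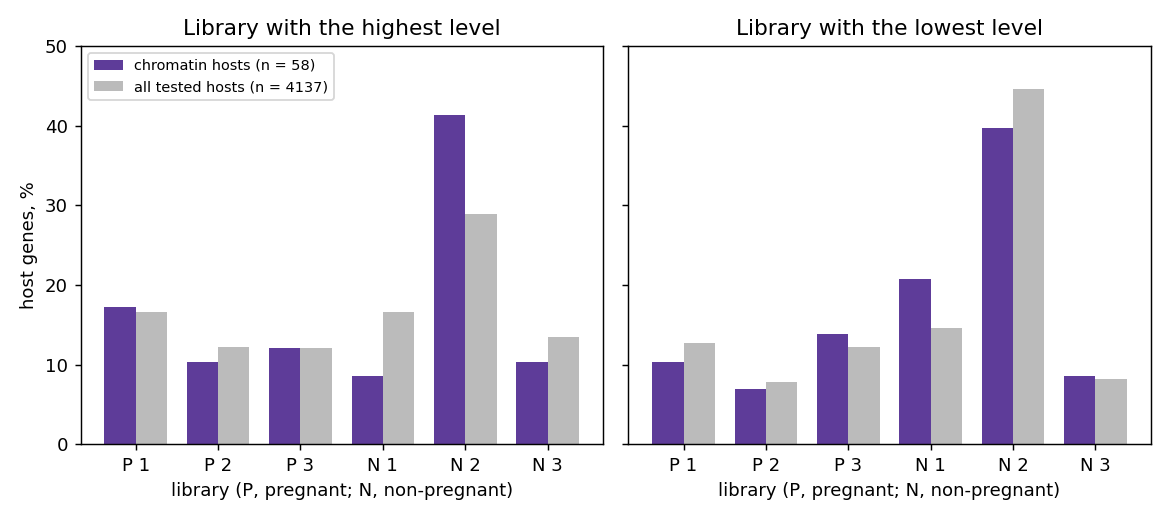
Share of host genes (bars, percent) for which each library had the highest level (left) or the lowest level (right), for the 58 chromatin hosts and for all 4137 hosts tested. Non-pregnant replicate 2 was the highest library for 41.4% and the lowest for 39.7% of the chromatin hosts, and no other library went above 20.7%.

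Among the 13 circRNAs that were higher in every pregnant animal, SETDB2's circRNA24675 had 14, 36 and 21 reads, against 0, 0 and 8 reads, and NSD2's circRNA6872 had 20, 87 and 25 reads, against 15, 0 and 9 reads. The first had a neighbour 1 bp away, circRNA15323, with 23 reads in non-pregnant replicate 1 only. Summed, that pair had 14, 36 and 21 reads, against 23, 0 and 8 reads, so that the groups overlapped, and the log2 fold change was 1.01 (SE 1.23), against 3.09 for circRNA24675 alone. The RCOR1 pair of circRNA26082 and circRNA19411 likewise overlapped once summed, with 36, 35 and 87 reads, against 0, 38 and 26 reads, and a log2 fold change of 0.37 (SE 1.35), against 2.78 for circRNA26082 alone. The NSD2 circle also had a neighbour, circRNA20166, with 2 reads in non-pregnant replicate 2 only. Summed, the NSD2 pair had 20, 87 and 25 reads, against 15, 2 and 9 reads, so every pregnant library still held more. Its log2 fold change was 1.97 (SE 0.92), against 2.23 for circRNA6872 alone. The CHD1 circle circRNA1221 had 32, 16 and 11 reads, against 7, 1 and 5 reads, and the SETD2 circle circRNA5132 had 16, 16 and 12 reads, against 4, 2 and 10 reads. The others included circRNAs of CHD3, ARID1B, KMT2E, RCOR1, ARID2, BRWD1 (2 circRNAs) and BRD7. Of the 15 circRNAs whose groups did not overlap, 4 had such a neighbour.

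Outside the filter, 7 of the 1028 circRNAs of the set were read in all 3 pregnant libraries and in no non-pregnant one, and 1 the other way round. SETD5's 8-exon circRNA33367 (NC_037565.1:17121265-17130868, minus strand) had 26, 9 and 12 reads in pregnant animals, against 0 in each non-pregnant library, or at least 12.4-fold higher when 3 counts over the group stand for 0. BRWD1's circRNA33257 had 19, 8 and 7 reads, against 0, or at least 8.97-fold higher. The other 5 came from SMARCC1, KMT2C, SMARCA2, NSD3 and CHD2, with bounds from 2.90 to 5.54. In the opposite direction, circRNA3477 of SMARCD1, a SWI/SNF subunit, had 0 reads in pregnant libraries, against 6, 1 and 9 reads in the non-pregnant ones, or at least 6.74-fold lower. These bounds cover counting error only, and such circRNAs were chosen for this pattern. Over all host genes, 410 of 54955 circRNAs were read in all 3 pregnant libraries only and 123 in all 3 non-pregnant libraries only. The share of the set was not above that of all host genes in either direction.

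Circles with both ends within 1 bp of another circle of the same host were common, with 75 pairs that took in 146 circRNAs (14.2%), against 14.4% over the whole table. The 66 exonic pairs had reads of either member in 261 library cases, and in 0 of these were both members read. Over all host genes this was 0 of 15716 cases. The 9 intronic pairs behaved differently, with both members read in 12 of 35 cases, and those 12 were all within the CHD3 cluster described above. Like the KDM6A pair, the CHD7 circles circRNA5403 and circRNA48935 took turns, with 103, 10 and 0 reads against 14, 5 and 45 reads for the one, and 0, 0 and 33 reads against 0 in each for the other. Their sum had a log2 fold change of 1.08 (SE 0.97), against 0.66 (SE 1.52) for circRNA5403 alone. CHD7 is a remodeller that is mutated in human CHARGE syndrome.

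Chromatin genes whose names the rule does not take were counted in the same way. Of 16 Polycomb hosts tested, 12 had a positive log2 fold change and the median was 0.40. The median was 0.50 over 18 acetyltransferases and coactivators without KAT names (12 positive) and 0.67 over 18 remodellers outside the SMARC, ARID and CHD names (13 positive), against 0.012 over all hosts, with 0 called by edgeR at an unadjusted p in these 3 lists. Without pregnant replicate 1 the acetyltransferase median was -0.16, and without non-pregnant replicate 2 the Polycomb median was 0.091. In the other alternatives run these 3 medians stayed above 0. In other lists, edgeR called 1 of 10 further methyltransferases (CARM1) and 1 of 4 further demethylases (JMJD1C) lower at an unadjusted p. It also called 1 of 14 deacetylase complex members and sirtuins lower, and 0 of 5 DNA methylation genes in either direction. Over all hosts tested, 4.52% were called lower. CARM1 had 13.5, 13.7 and 13.4 CPM in pregnant animals, against 23.3, 262 and 7.95 CPM in non-pregnant animals, with non-pregnant replicate 2 high. JMJD1C, a demethylase family member, had 14.4, 9.87 and 25.7 CPM in pregnant animals, against 19.1, 393 and 25.4 CPM in non-pregnant animals, again with non-pregnant replicate 2 high.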

How the data were processed

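In the 1 table that the authors deposited, each circRNA has a raw count for every library and a signal, SRPBM, equal to that count over a constant of the library (4.36 to 5.81). For the pipeline, the study's methods give Cutadapt, Bowtie2, Tophat2, Tophat-fusion, CIRI, CIRCExplorer and assembly ASM312139v1. The submitters' notes on processing list other tools (HISAT2, fastp, StringTie, HOMER, edgeR, ChIPseeker) and GRCh38.p10. GRCh38.p10 is a human build, whereas the positions given here are on buffalo sequences of ASM312139v1. Which tools made the table is not settled by the sources used here. Library totals were 815851 to 1298753 counts, so that 3 counts, the limit a count of 0 allows, are 2.31 to 3.68 CPM before factors, for counting error only. GO terms were not used here. The 2353 intergenic circRNAs were left out of the host sums only. They stayed in the library totals above and in the circRNA fit, where 7960 of the 8261 circRNAs tested had a host gene.

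Counts were summed per host over all hosts and tested with edgeR 4.0.16 in R 4.3.3 (quasi-likelihood test, TMM factors, filterByExpr, Benjamini-Hochberg over all features). Where the study names a t-test, the count model took its place. The standard error is the absolute log2 fold change divided by the square root of F. Alternatives used DESeq2 1.42.0 and limma 3.58.1, and the steps were tested on simulated data. Tables and plots used Python 3.11.15, pandas 2.3.3, numpy 2.4.6 and matplotlib 3.10.9.

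The members and lists were chosen with earlier results of these data known. Named hosts were the 2 with the highest mean CPM per name family, up to 5 per direction with the smallest p, and RCOR3, BRWD1 and SETD5. Named circRNAs were the 10 with the highest mean CPM, up to 5 per direction with the smallest p and the 4 pairs 1 bp apart with the most reads, and named hosts of other lists were the 2 with the smallest p. Circles described for their make-up, their separation of groups, their presence in 1 group or in 1 library were chosen after their values were seen, as were HDAC1, HDAC3, SMARCA2 and SMARCA4. For 3 animals against 3, the smallest two-sided exact permutation p is 0.1, so none was used. Some genes that the rule names are not reported here and are not drawn.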

Additional observations from a re-analysis of the deposited data

How the results depend on the processing

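With no filter, 4 of 95 hosts (6.29% of all hosts) and 28 of 1028 circRNAs (3.70% of all) were called at an unadjusted p and 8 circRNAs (1.05% of all), all lower, at an adjusted p. DESeq2 called 2 hosts and 6 circRNAs at an unadjusted p, limma on log2(SRPBM + 1) called 0 and 4, and limma on log2(SRPBM + 0.1) called 0 hosts. SRPBM-implied library sizes, an alternative chosen after seeing the data, called 0 hosts (1.93% of all hosts) and 0 circRNAs (1.94% of all circRNAs). Leaving out 1 library gave 0 hosts (non-pregnant replicate 2, 4.47% of all hosts, or pregnant replicate 2, 4.55%) to 5 hosts (non-pregnant replicate 1, 9.95%), with 4 without non-pregnant replicate 3 (11.2%), and 1 circRNA (pregnant replicate 1, 3.82% of all circRNAs) to 14 circRNAs (non-pregnant replicate 1, 7.43%, or 3, 9.14%) at an unadjusted p, and 0 at an adjusted p. Over all hosts, 2 were called at an adjusted p without pregnant replicate 2 and 1 without pregnant replicate 3. Of the unadjusted calls over all hosts, 17.6% were higher, but 53.8% with SRPBM sizes, which moved the median of all hosts to 0.16 (RLE -0.13).

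The replicate numbers did not pair the animals: same-numbered deviations correlated at -0.15, -0.07 and -0.018 over hosts. With the number as a block, 0 hosts (2.39% of all hosts) and 2 circRNAs (1.79% of all circRNAs) were called at an unadjusted p. At an adjusted p 0 members were called, against 1 of 4137 hosts and 0 of 8261 circRNAs over all features. With the block the log2 fold change turned to 0.046 for KAT2B, 0.11 for RCOR1, -0.90 for circRNA5403 and 0.052 for circRNA6871.

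Among the alternative log2 fold changes of named features, 718 kept their direction, with no adjusted call gained or lost, and 57 reversed. Unadjusted calls did change, as the counts above show. Reversals without 1 library gave the ranges -0.41 to 0.20 (BRWD1), -2.20 to 0.37 (CHD2), -2.48 to 0.73 (CHD9), -0.45 to 0.73 (HDAC8), -0.32 to 0.39 (KAT2B), -1.67 to 0.079 (KDM6A), -0.28 to 0.10 (KMT2C), -0.67 to 0.82 (RCOR1), -0.64 to 0.056 (RCOR3), -2.16 to 0.88 (SETD5), -0.71 to 0.0022 (SMARCC1), -2.64 to 0.32 (circRNA10249), -1.79 to 0.042 (circRNA10358), -0.41 to 1.64 (circRNA1402), -0.36 to 1.76 (circRNA4901), -2.39 to 1.28 (circRNA5403), -4.42 to 0.48 (circRNA6746), -0.65 to 0.83 (circRNA6871) and -3.03 to 0.32 (circRNA9091). SRPBM sizes gave 0.16 for BRWD1, 0.36 for KAT2B, 0.14 for KMT2C, 0.21 for RCOR1, 0.10 for RCOR3, 0.0054 for SMARCC1 and 0.67 for circRNA6871. With 0.1 and with 1 added to SRPBM, limma gave 0.12 and 0.12 for BRWD1, 0.28 and 0.28 for KAT2B, 0.13 and 0.13 for KMT2C, 0.30 and 0.28 for RCOR1, -0.88 and -0.061 for circRNA5403, and 0.52 and 0.51 for circRNA6871. A mean count of at least 20 gave 0.064 for KAT2B, 0.0069 for KMT2C and 0.25 for circRNA6871. DESeq2 and RLE factors gave -0.12 for ARID2, and merging ends within 1 bp gave -1.31 for circRNA27035. The cause was not tested. Few reads limit SETD2 and most circRNAs.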
